A study of Mus musculus with 6 samples.

Results

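The genes described are Pparg, Lpl, Fabp4, Adipoq, Retn, Lep, Cd36, Pck1 and Slc2a4, which are commonly used to mark adipocytes, including those of the dermal white fat layer. They were taken as every non-control probe carrying 1 of the 9 symbols, which gave 11 of the 55681 probes on the array. Only probes that stood well above background in 3 or more of the 6 arrays were tested, and each gene was represented by its brightest tested probe. On that basis 7 of the 9 genes were among the 24457 targets tested, and Adipoq and Pck1 were not.

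White adipocytes store triglyceride in a lipid droplet and release fatty acids from it. The nuclear receptor encoded by Pparg drives their differentiation and switches on genes for lipid uptake, binding and storage, among them Fabp4, Lpl, Cd36 and Adipoq. In mouse skin a layer of such cells lies beneath the dermis and expands and shrinks with the hair growth cycle.

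The samples were back skin of male C57BL/6 mice aged 6 to 8 weeks, with 3 mice in each group and 1 mouse per array. Control mice were shaved and kept in the dark. UVB mice were shaved in the same way and, from 2 days later, were anaesthetised and received 180 mJ/cm2 of UVB 3 times a week for 2 weeks. RNA (0.2 µg) was labelled with 1 dye (Cy3) and hybridised to Agilent arrays, and the values below are the processed signal of the probe, an intensity in arbitrary units. Because signals were not yet scaled, the 75th percentile of each array is the yardstick: it lay between 363 and 519 in the control arrays and between 302 and 352 in the UVB arrays. Between 54.9% and 63.3% of spots were well above background, and no spot was saturated. Fold changes were taken on the log2 scale after dividing each array by its 75th percentile, and are given as UVB minus control with a standard error. A call means a Benjamini-Hochberg adjusted p below 0.05 in limma over all tested targets.

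Probe sequences show what was measured. For Adipoq, Lpl and Retn the 60-base probes are given 5′ to 3′ in lower case with no capitals, because the first is the defining adipocyte product, the next is the dimmer of a pair of probes for 1 gene and the last is a gene whose sign depended on the processing. Positions are those of the array annotation (mm9), at chr16:23157576-23157635 (+), chr8:71425050-71425109 (+) and chr8:3657312-3657371 (+).
Adipoq probe: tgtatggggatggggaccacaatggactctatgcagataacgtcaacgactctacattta
Lpl second probe: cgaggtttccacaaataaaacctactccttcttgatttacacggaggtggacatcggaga
Retn probe: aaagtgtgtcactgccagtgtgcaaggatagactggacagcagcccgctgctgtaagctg

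Promoter windows of 250 bases before the annotated start, from RefSeq (GRCm38.p6), were found for 6 of the 9 genes, 8 windows in all, and Fabp4, Lpl and Slc2a4 are named only. A pair of Pparg windows is shown because Pparg has alternative starts and their letters differ, and the Lep window because it alone held a C/EBP palindrome. Capitals mark AGGTCA, the half-site read by many nuclear receptors, or TTGCGCAA. The windows lie on the + strand at chr6:115362099-115362348, chr6:115421816-115422065 and chr6:29059971-29060220.
Pparg upstream window: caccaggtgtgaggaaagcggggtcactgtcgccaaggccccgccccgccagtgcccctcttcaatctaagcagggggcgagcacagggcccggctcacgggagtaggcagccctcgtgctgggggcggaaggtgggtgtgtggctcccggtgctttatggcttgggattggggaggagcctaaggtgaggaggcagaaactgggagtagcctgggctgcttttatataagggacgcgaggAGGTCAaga
Pparg downstream window: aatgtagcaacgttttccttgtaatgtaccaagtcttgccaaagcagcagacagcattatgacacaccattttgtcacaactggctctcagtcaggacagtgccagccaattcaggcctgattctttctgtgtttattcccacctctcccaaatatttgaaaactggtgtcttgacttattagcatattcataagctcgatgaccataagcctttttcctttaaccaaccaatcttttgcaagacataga
Lep window: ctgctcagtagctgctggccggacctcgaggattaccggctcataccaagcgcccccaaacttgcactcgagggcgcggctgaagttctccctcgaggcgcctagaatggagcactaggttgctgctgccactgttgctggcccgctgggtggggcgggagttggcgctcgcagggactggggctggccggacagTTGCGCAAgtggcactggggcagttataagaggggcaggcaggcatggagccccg

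AGGTCA, searched on both strands, was present in 14.0% of all 32851 promoter windows. It stood 9 to 4 bases before the start in the upstream Pparg window shown, 28 to 23 bases before the start in another Pparg window, and 228 to 223 bases before the start of Cd36 on the opposite strand. DR1, the PPAR-type direct repeat that holds AGGTCA at both ends with 1 base between, was present in 0.0335% of all windows and in none of the 8. TTGCGCAA was present in 0.164% of all windows, and in Lep it lay 55 to 48 bases before the start. TATAAA, searched on the gene strand, was present in 7.59% of all windows and in none of the 8. These are matches of letters, not binding sites.

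Of the 7 genes tested, Pparg, Lpl and Slc2a4 fell after UVB and Fabp4 rose, while Cd36, Lep and Retn did not pass the test. Over all targets, 6.98% fell and 5.52% rose in the same fit. Pparg and Lpl fell by more than 1 on the log2 scale, as 2.46% of all targets did. Of the 11 probes, 8 were tested, and of these 4 fell and 1 rose, against 6.08% and 5.04% of the 33767 probes tested. The groups did not overlap for 3 lower genes and 1 higher gene, a state shared by 22.6% and 15.9% of all targets. The median log2 fold change of the 7 was -0.62, against -0.04 over all targets, and the 2 untested genes are not part of it. The arrays are of whole skin, so fewer cells of a type and less RNA per cell cannot be told apart. The p-values measure the spread between these 6 mice.

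**Figure D1:**
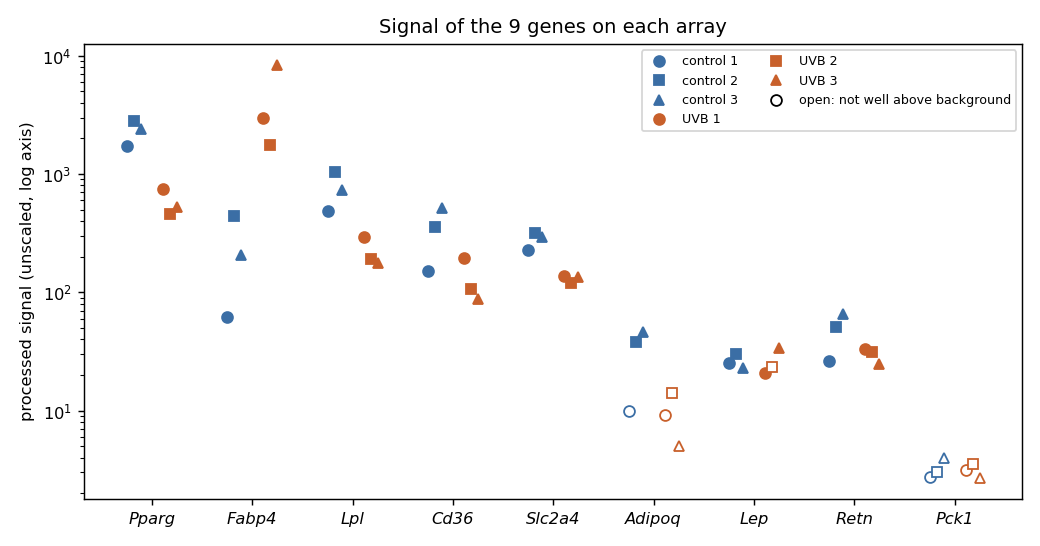
Processed signal of the 9 genes on each array (log axis, arbitrary units), with control arrays in blue, UVB arrays in orange, replicates by marker shape and open markers for a probe not well above background. Pparg, Lpl and Slc2a4 separate downward, Fabp4 separates upward, and every Pck1 marker and every Adipoq marker of the UVB mice is open.

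The label was checked on the defining adipocyte products. Adipoq encodes adiponectin, the hormone that adipocytes release into blood. Its signal was 9.93, 37.7 and 45.8 in control mice 1, 2 and 3, and 9.23, 14.1 and 4.98 in UVB mice 1, 2 and 3. It was well above background in control 2 and 3 only, so the first control mouse lay with the UVB mice. No fold is given, since control 1 was itself not well above background. With dim probes kept in the limma fit, its log2 fold change was -1.09 and did not pass (adjusted p = 0.207).

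Pck1, the gluconeogenic enzyme that adipocytes use to make glycerol, had signals of 2.74, 3.01 and 4.01 in control mice and 3.15, 3.54 and 2.68 in UVB mice, above background on none of the 6 arrays. Plin1, which encodes the perilipin coating the adipocyte droplet, was well above background on 1 control array alone, with signals of 7.76, 12.1 and 21.7 against 11.4, 6.15 and 10.5. Of other adipocyte products, some were detected on every array and some were not. Cfd (adipsin) had signals of 62.6, 399 and 235 in control mice and 82.6, 93.2 and 35.8 in UVB mice. Plin4, a droplet coat protein, lay between 866 and 3594 in control mice and between 356 and 774 in UVB mice. It was named after its values were seen, as were Trarg1, Fitm1 and Thrsp. Trarg1 and Fitm1 were above background on no array, and Thrsp on 1 control array alone. Over the 15 genes of the droplet and lipolysis list, 13 to 14 were above background on a control array and 11 to 12 on a UVB array. Adipoq, Pck1 and Plin1 were at or near the detection limit, so the 9 genes are called below by their own names.

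Pparg had the smallest adjusted p of the 7. Its signal was 1729, 2803 and 2420 in control mice and 742, 462 and 523 in UVB mice. Every control array stood above every UVB array, and after scaling the lowest control value was 2.26 times the highest UVB value. Its log2 fold change was -1.53 ± 0.16 (SE, n = 3 per group; limma adjusted p = 0.00520), a level 2.89-fold lower with a 95% interval of 2.20 to 3.79. It passed under all 16 alternative settings, and with 1 array left out its adjusted p lay between 0.0148 and 0.0284. Its probe lies at chr6:115440213-115440272 (+, mm9) and is present as 10 spots. Which skin cells gave the signals of Pparg, Lpl and Cd36 was not tested. Of 9 tested markers of sebaceous gland cells, 8 were negative and 1 positive, with a median log2 fold change of -0.79.

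Lpl encodes lipoprotein lipase, which frees fatty acids from circulating triglyceride for uptake. The brighter of its 2 probes (chr8:71430267-71430326, +) had signals of 486, 1037 and 730.4 in control mice and 294, 190.2 and 176 in UVB mice. The groups did not overlap, and the nearest pair after scaling differed by 1.61-fold. The log2 fold change was -1.26 ± 0.21 (limma adjusted p = 0.0183), 2.39-fold lower with a 95% interval of 1.67 to 3.43. The second probe, shown above, had signals of 121, 359 and 245 against 84.5, 57.0 and 43.0, and in a fit over probes its log2 fold change was -1.41 ± 0.31 (adjusted p = 0.0390). The Lpl call depended on single arrays: it was lost without control 2 (-1.10, limma adjusted p = 0.0635) and without UVB 2 (-1.19, adjusted p = 0.0551).

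Cd36 encodes a fatty acid translocase that works beside lipoprotein lipase. Its signal was 149.9, 356 and 519 in control mice and 194, 106.9 and 88.3 in UVB mice, and UVB 1 stood above control 1. The log2 fold change was -0.83 ± 0.40 with a 95% interval of -1.79 to 0.14 (limma adjusted p = 0.212). Without control 3 it was -0.49, so the size rested in part on that array. The position of its probe is chr5:17288600-17288659 (-, mm9).

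Slc2a4 encodes GLUT4, the insulin-responsive glucose transporter of fat and muscle. Its signal was 229, 319 and 295 in control mice and 137, 119 and 133 in UVB mice, measured on 10 spots per array at chr11:69756073-69756132 (-, mm9). The groups did not overlap and each was tight, with scaled values spanning 1.04-fold in controls and 1.17-fold after UVB. The log2 fold change was -0.62 ± 0.12 (limma adjusted p = 0.0235), 1.54-fold lower with a 95% interval of 1.27 to 1.87. With 1 array left out the call held in 1 of 6 fits, without UVB 3 (adjusted p = 0.0322), and the highest adjusted p of the 6 was 0.0973. Skeletal muscle also uses Slc2a4: of its 12 markers 8 were tested and none passed, with a median log2 fold change of -0.46 and a mean level of -2.74 to -1.18 in control and -3.15 to -1.85 in UVB mice, and their part in the result was not tested.

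Fabp4 moved the other way. It encodes the fatty acid binding protein that is among the most abundant cytosolic proteins of fat cells, and it is also made by macrophages and capillary endothelium. Its signal was 61.4, 439.8 and 208 in control mice and 3004, 1769 and 8408 in UVB mice (chr3:10204452-10204511, -, mm9). All UVB arrays lay above all control arrays, the lowest scaled UVB value being 6.64 times the highest control value. Each group was wide, spanning 5.01-fold in controls and 4.95-fold after UVB. The log2 fold change was 4.80 ± 0.77 (limma adjusted p = 0.0160), 27.9-fold higher with a 95% interval of 7.62 to 102. It stood at place 88 among all targets ordered by rise. A rise of 4 or more on the log2 scale that passed was seen in 0.446% of targets. With 1 array left out the estimate ranged from 4.13 to 5.35, and the call was lost without UVB 1 (4.99, adjusted p = 0.0551).

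**Figure D2:**
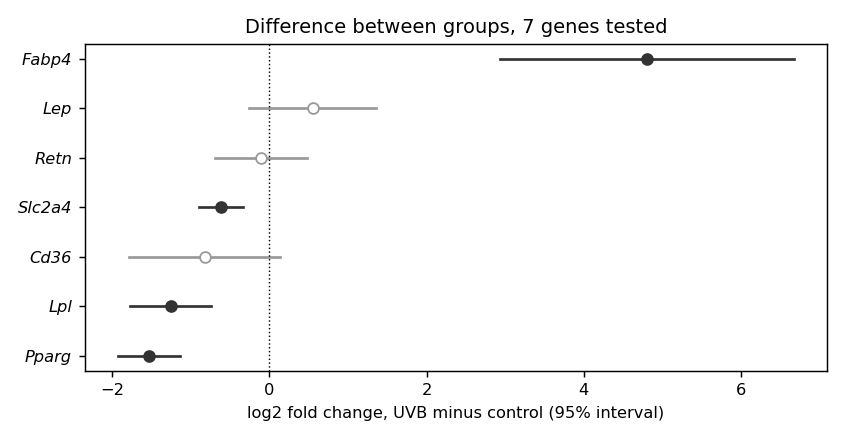
Log2 fold change (UVB minus control) of the 7 tested genes with 95% intervals, filled where the adjusted p was below 0.05. Fabp4 stands at 4.80, and Pparg, Lpl and Slc2a4 lie at -1.53, -1.26 and -0.62 with intervals below 0.

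Markers of endothelium and macrophages, which also make Fabp4, were measured beside it, as were markers of the growing hair follicle. Whether follicle cells make Fabp4 was not tested. Of 10 endothelial markers, 6 were tested and none passed, with a median log2 fold change of 0.27, 5 positive and 1 negative. The untested ones were Cdh5, Tie1, Emcn and Tek, none above background on a control array. Cdh5 was above background on 2 UVB arrays, Tie1 on 1, and Emcn and Tek on none. Of 10 macrophage markers, 8 were tested, 2 fell and 1 rose: Adgre1 (F4/80) was at -1.88 ± 0.11, Csf1r (the M-CSF receptor) at -1.52 ± 0.17 and Lyz2 (lysozyme) at 1.47 ± 0.34. The other tested Csf1r probes gave -1.19 ± 0.25 and -0.12 ± 0.15. Lyz2 was dim and above background on 1 control array, with signals of 11.1, 15.1 and 7.04 against 25.1, 25.2 and 14.4. Over all targets 6.98% fell and 5.52% rose in the main fit. With 1 array left out, the macrophage list held 2 falls throughout and 0 to 1 rises. The mean scaled level of the macrophage markers was -1.38 to -0.74 in control and -1.44 to -1.09 in UVB mice, and that of the endothelial markers -2.28 to -1.81 and -2.42 to -1.06. All 12 markers of the growing hair follicle were tested, 10 rose and none fell, with a median of 7.87. Tchh, Krt27 and Krtap11-1, structural genes of the hair shaft and its sheath, rose by 7.33, 8.48 and 8.40 on the log2 scale. Krt33b, a hair shaft keratin above background on no control array, was at least 524-fold higher. Their mean scaled level lay between -2.73 and -1.65 in control mice and between 3.25 and 5.17 in UVB mice. Their part in the Fabp4 result was not tested.

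The profiles nearest to Fabp4 over the 6 arrays, by root mean square distance after centring, were Sct (0.37), Krt28 (0.48), Krt36 (0.56), Krt82 (0.60) and Krtap15 (0.60), in log2 units. This list was made after the values were seen. Sct encodes the hormone secretin, and the other 4 encode hair follicle keratins or a keratin-associated protein. Their log2 fold changes were 5.08, 4.94, 4.48, 5.75 and 5.39, with Krt36, Krt82 and Krtap15 above background on 1, 2 and 1 of the 3 control arrays. Fabp4 was highest in UVB 3, then UVB 1, then UVB 2. This order was shared by 9 of the 10 follicle markers that rose, by 24.1% of all targets that rose and by 17.1% of all targets. It was taken from Fabp4 after the values were seen. The follicle markers were measured on the same UVB mice, so they are not independent counts. Where Fabp4 was made was not tested.

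**Figure D3:**
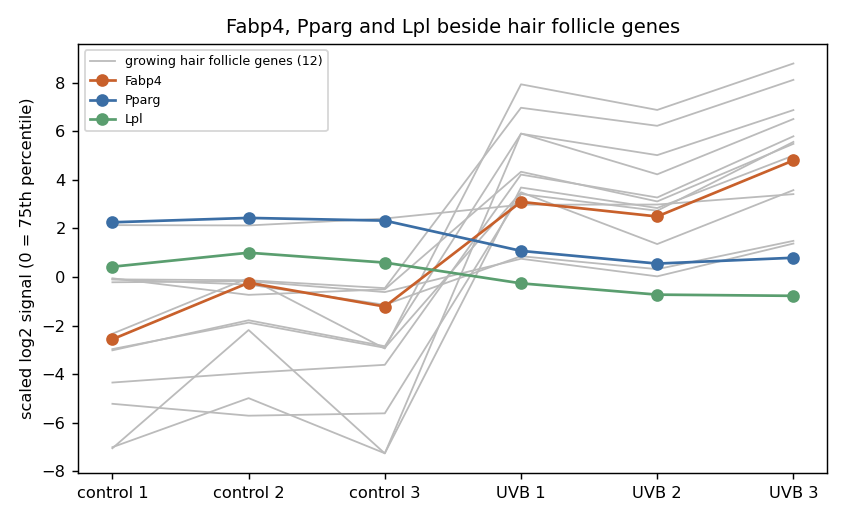
Scaled log2 signal (0 is the 75th percentile of the array) of Fabp4, Pparg and Lpl beside the 12 growing hair follicle genes, drawn in grey, on each array. Fabp4 and the follicle genes are higher in UVB mice, and Pparg and Lpl are lower.

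For Pparg the nearest profiles were Bbs9 (0.10), Tmem26 (0.11), Hsd3b6 (0.11), Bhlhb9 (0.11) and Rnls (0.13), of which Tmem26 and Bhlhb9 were above background on no UVB array. For Adipoq they were Cfd (0.34), Hspb3 (0.39), Gpd2 (0.41), Fyb2 (0.41) and Orc1 (0.42), but Adipoq was above background on 2 of the 6 arrays, so this order rests largely on values near background. Cfd, a complement factor that fat cells secrete in quantity, had a log2 fold change of -0.99 ± 0.61 (limma adjusted p = 0.313).

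Ratios within each array removed the scaling. Fabp4 relative to Pparg was higher after UVB by 6.33 on the log2 scale, and the groups did not overlap (exact two-sided permutation p = 0.1, the smallest that 3 against 3 allows, adjusted p = 0.160 over 8 ratios). This reference was added after the values were seen. The same p was reached by Slc2a4 (0.91), by Lep (2.08) and Retn (1.42), which were not called, and by Pck1 (1.96), which was undetected. No ratio to Pparg passed after adjustment. Because Pparg itself fell, these ratios cannot separate a change in the other gene from the fall of the reference. Lpl differed from Pparg by 0.27 (exact p = 0.2). Ratios to Adipoq had adjusted p from 0.533 to 0.800 in the exact permutation test, and their sizes are not given because Adipoq was above background on no UVB array.

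Lep and Retn encode leptin and resistin, hormones that mouse adipocytes secrete. Lep had signals of 25.3, 30.1 and 23.1 in control mice and 20.8, 23.3 and 34.1 in UVB mice, so the groups overlapped. Its log2 fold change was 0.55 ± 0.33 with a 95% interval of -0.26 to 1.36 (limma adjusted p = 0.311), and 0.18 without UVB 3. The 10 Lep spots (chr6:29023234-29023293, +, mm9) disagreed within every array, with a coefficient of variation of 46.2% to 83.7%. The same figure was 2.68% to 3.60% for Pparg and 2.67% to 6.43% for Slc2a4.

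**Figure D4:**
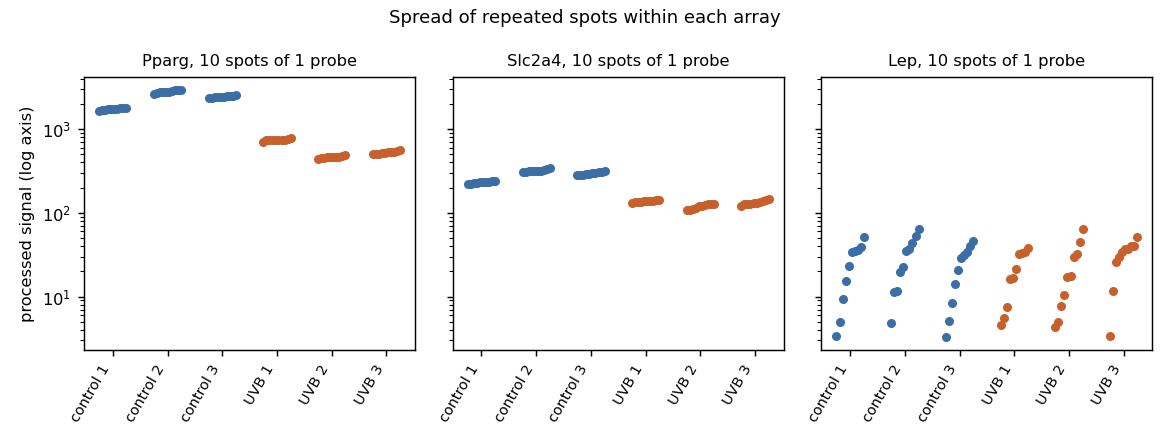
Processed signal (log axis) of the 10 spots of 1 probe on each array, for Pparg, Slc2a4 and Lep. The highest Lep spot was 8.16 to 15.5 times the lowest within an array, against 1.09 to 1.12 for Pparg and 1.08 to 1.23 for Slc2a4.

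Retn had signals of 26.2, 50.9 and 65.8 in control mice and 33.1, 31.2 and 24.8 in UVB mice. The first UVB mouse exceeded control 1, and the groups overlapped. The log2 fold change was -0.11 ± 0.24 with a 95% interval of -0.69 to 0.47 (limma adjusted p = 0.790), and it turned positive with normexp background correction (0.18) and without control 3 (0.12). A second Retn probe (chr8:3659757-3659816, +) was above background on 2 control arrays and no UVB array, with signals of 5.71, 29.8 and 47.4 against 15.1, 10.4 and 13.0, and was not tested.

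A further 7 lists held genes with roles in adipocytes: 95 genes, of which 83 were tested. Control signals differed widely, being 2.69 to 3.19 for Trarg1 and 143196 to 240763 for Fabp5, against 9.93 to 45.8 for Adipoq. Which skin cells gave the signals of the listed genes was not tested. In these lists 17 genes fell and 6 rose, beside 6.98% and 5.52% of all targets, so the rises were near the background share. The same shares stand beside the counts of every list below. Of the estimates, 56 of the 83 were negative, with a median of -0.22 against -0.04 over all targets. Of the 23 called, 5 that fell (Agpat2, Angptl4, Cdh13, Nrg4 and Plin2) and 2 that rose (Cd24a and Tle3) kept their call when each array was left out in turn. The other 16 lost it in at least 1 such fit.

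Of 14 regulators of fat cell formation tested, 1 fell and 1 rose, with a median of -0.14. These counts are near the shares of all targets, 6.98% lower and 5.52% higher. Nr1h3, the liver X receptor alpha, fell by 1.07 on the log2 scale (SE 0.19, limma adjusted p = 0.021), and held with 1 array out in 1 of 6 fits. Tle3, a co-regulator that works with the Pparg product, rose by 0.89 ± 0.11 (adjusted p = 0.008). Cebpa, the partner factor of Pparg, was at -0.14 ± 0.15 (adjusted p = 0.549).

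In the lipid droplet and lipolysis list 13 were tested, 5 fell and 1 rose. Plin2, a coat protein of droplets in many cell types, was at -1.44 ± 0.18 (limma adjusted p = 0.008). Mgll, the monoglyceride lipase, named here after its values were seen, was at -1.28 ± 0.27 (adjusted p = 0.032) and held in 1 of 6 fits with 1 array out. The probes of Cidec, a droplet fusion factor, disagreed. The brighter was above background on no UVB array and at least 5.12-fold lower there in the main processing. Its fitted log2 fold change was -2.66 (limma adjusted p = 0.021, held in 3 of 6 such fits), and the other probe gave -0.36 ± 0.52. With normexp the Cidec estimate was -0.89, a smaller fall than that bound. Cidea, a related droplet protein (-1.18 ± 0.23), and G0s2, an inhibitor of Pnpla2, also fell, and kept the call in 2 of 6 such fits each. G0s2 was above background on no UVB array and at least 1.29-fold lower there in the main processing. The G0s2 bound did not hold with normexp, where the sign turned (0.14). Its call was lost with trended robust eBayes (limma adjusted p = 0.0780). Lipe, the hormone-sensitive lipase, rose by 0.95 ± 0.22 (adjusted p = 0.039) and held in 1 of 6. The Lipe call was also lost with quantile scaling (0.84, adjusted p = 0.0749), median scaling (0.84, 0.0707), the authors' deposited table (0.83, 0.0755) and no filter on dim probes (0.0633). Pnpla2, the first triglyceride lipase, was at -0.24 ± 0.14 (adjusted p = 0.281).

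Fatty acid and triglyceride synthesis had the lowest median of the 7 lists, -0.73, with 4 of 15 tested genes down and none up. Agpat2, an acyltransferase of triglyceride synthesis, was at -1.44 ± 0.14 (limma adjusted p = 0.004). Scd1, the stearoyl-CoA desaturase, was at -1.29 ± 0.20 (adjusted p = 0.014), a call lost without control 2. Dgat1 and Acly also passed, and kept the call in 1 and 0 of 6 fits with 1 array out. Both were lost with no filter on dim probes (adjusted p = 0.0609 and 0.0814), and Acly also with median scaling (0.0708) and with the mean of its probes (0.198). Fasn, the fatty acid synthase, was at -0.73 ± 0.28 (adjusted p = 0.135) and passed without control 1 (-1.05, adjusted p = 0.0226). Dgat2, the other terminal acyltransferase, was at 0.29 ± 0.20 (adjusted p = 0.377). Sebaceous glands also make lipid: of 10 sebocyte markers 9 were tested, 2 fell (Soat1, which esterifies cholesterol, and Cidea), none rose and 8 were negative, with a median of -0.79. With 1 array left out, 0 to 2 fell. Their mean level was 0.67 to 1.58 in control and 0.05 to 0.84 in UVB mice, and their part in the result was not tested.

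Among secreted proteins 3 of 11 tested fell and none rose. Angptl4, an inhibitor of lipoprotein lipase, was at -2.05 ± 0.25 (limma adjusted p = 0.007). Nrg4, a neuregulin, was at -1.26 ± 0.15 (adjusted p = 0.007). Nampt, the NAD salvage enzyme, was at -1.004 ± 0.157 (adjusted p = 0.015), a call lost without UVB 1. In the receptor and insulin signal list 3 of 12 fell and none rose. Cdh13, the T-cadherin that binds adiponectin, was at -1.77 ± 0.13 (adjusted p = 0.003), and Pde3b and Cav1 kept their calls in 1 of 6 fits each. Pde3b was also lost with normexp (-0.31, adjusted p = 0.165) and Cav1 with no filter (0.0527). Lepr, the leptin receptor, was at 0.13 ± 0.11 (adjusted p = 0.475).

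Uptake genes were mixed, with 2 of 11 tested up and a median of -0.08. Vldlr, a lipoprotein receptor, rose by 0.72 ± 0.11 (limma adjusted p = 0.014), a call lost without control 2 or UVB 1. Fabp5, the epidermal relative of Fabp4, rose by 0.56 ± 0.13 (adjusted p = 0.045) and kept the call in 0 of 6 fits with 1 array out. The Fabp5 call was also lost with quantile scaling (0.37, adjusted p = 0.181), median scaling (0.46, 0.146), the authors' deposited table (0.34, 0.215) and no filter (0.0814). Gpihbp1, which holds lipoprotein lipase on capillaries, was at 0.48 ± 0.37 (adjusted p = 0.420). Of 7 progenitor markers tested, Cd24a rose by 1.73 ± 0.15 (adjusted p = 0.004), Dpp4 rose by 0.99 ± 0.16 (adjusted p = 0.016; lost without control 2 or UVB 1), and none fell. Dlk1, the preadipocyte factor, was at -0.51 ± 0.19 (adjusted p = 0.126). Cd24a is also made by follicle and epidermal cells. Among 10 keratinocyte markers 2 rose, among them Ivl (1.61 ± 0.15), and 2 fell. Among 9 tested fibroblast markers 4 rose and 1 fell, with Col1a1 at 2.35 ± 0.46 and Thy1 at -1.85 ± 0.12. With 1 array left out 0 to 3 fibroblast markers rose. Their part in these results was not tested.

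**Figure D5:**
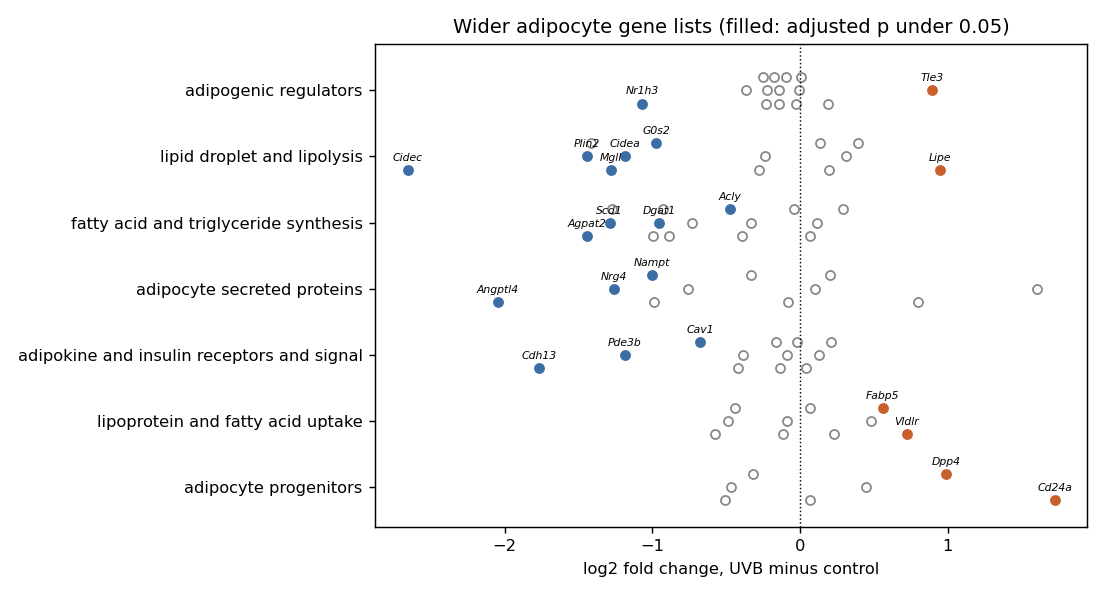
Log2 fold change (UVB minus control) of the tested genes in the 7 wider adipocyte lists, 1 point per gene reported, filled and named where the adjusted p was below 0.05 (blue lower, orange higher). Filled points lie mostly left of 0 in the droplet, synthesis, secreted and receptor lists, and right of 0 for progenitor markers.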

How the data were processed

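The authors deposited 1 Agilent scanner table per mouse, 3 control and 3 UVB, holding a processed signal intensity for each of 62976 spots, made with Feature Extraction 10.7.1.1 per the file headers. A second deposited table by the authors holds log2 values with an equal median on every array, 4.95; each column matched its own array best (r from 0.99866), and how it was scaled is not stated in the labels or headers. It served as an alternative.

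From the intensities, control spots were left out, each array was divided by its 75th percentile, log2 was taken and spots of a probe were averaged. The average left out spots flagged as outliers (135 to 274 per array), except where all spots of a probe were flagged on that array. A probe counted as above background when at least 50% of its spots did, and was tested when above background on at least 3 arrays. Names came from RefSeq accessions for 26582 probes, from symbols for 2602, and 26497 kept the deposited name. Groups were compared in R 4.3.3 with limma 3.58.1 (lmFit, eBayes, Benjamini-Hochberg), 1 probe per target, without a block; the script was tested on simulated data. Arrays shared 1 slide and scan, so no slide term was fitted. An "at least" fold sets the brighter group's mean against a floor for each dim array. That floor is the lowest signal above background on the array, or the probe's own value where higher. Such a fold holds for the main processing only. The number of arrays limits precision.

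The 9 genes and all lists were chosen with earlier results of these data known. Named were all 9 genes, from each other list at most 4 called genes of smallest p plus set key genes (among them Cebpa, Plin1, Lipe, Fasn and Lepr), and the 5 nearest profiles of Adipoq and Pparg; 1 gene of the uptake list is not reported here. Alternatives were other scalings, normexp (offset 50), the deposited table, other filters, the mean of a gene's probes, trended robust eBayes, a replicate block, and each array left out.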

Additional observations from a re-analysis of the deposited data

How the results depend on the processing

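With 3 mice a group, few calls outlasted every setting. Pparg passed under all 16, as did Agpat2, Angptl4, Cd24a, Cdh13 and Nrg4 of the wider lists. Ucp1 passed under all 15 of its settings. Of the single-gene comparisons, 562 kept direction and side of the threshold, 116 lost the call and 1 gained it. Signs turned for Retn with normexp (0.18) and without control 3 (0.12), its range with 1 array left out being -0.34 to 0.12, and with normexp for Tmem26 (0.0978) and G0s2 (0.144); both of the latter are dim, and the cause was not tested. Median scaling, normexp and no filter moved the median of all targets from -0.04 to -0.14, 0.09 and 0.11. Targets lower numbered 1707, or 1063 with no filter (more targets tested), and targets higher 1349, or 2544 with normexp. With no filter 2 member probes were lower. With 1 array left out, targets lower ranged from 386 to 1055 and higher from 465 to 956; members lower from 1 to 3 and higher from 0 to 1; member probes the same, 1 to 3 and 0 to 1; and wider-list genes lower from 7 to 14 and higher from 2 to 6. Signal near background limits Adipoq, Pck1, Lep and Retn.

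Same-numbered control and UVB mice did not deviate together (r = -0.11, -0.26 and -0.08). Pairs of unlike number were not compared, so this does not exclude that the mice were paired. With the replicate block, 302 targets were lower and 469 higher, 1 member and 1 member probe were lower and 0 members and 0 member probes higher, and 6 wider-list genes were lower and 1 higher. Pparg passed under the block (limma adjusted p = 0.0418), and Fabp4 (0.0541), Lpl (0.0778) and Slc2a4 (0.0964) did not.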

Other observations

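Genes of brown and beige fat, which burn fuel for heat, were also on the array. All 10 were tested, 4 fell and 2 rose, with a median log2 fold change of -0.44. Over all targets 6.98% fell and 5.52% rose. Dio2, which activates thyroid hormone, was at -2.10 ± 0.27, Cox8b, a mitochondrial subunit, at -1.48 ± 0.23, and both passed the limma test. Tmem26, a beige marker, was above background on no UVB array and at least 1.25-fold lower there in the main processing. The Tmem26 bound did not hold with normexp, where the sign turned (0.0978). Cidea, already described, was the other that fell, and Tbx1, named after its values were seen, rose by 1.14 ± 0.22 and kept its call in 2 of 6 fits with 1 array left out. Ucp1, the uncoupling protein, had signals of 2.74, 2.92 and 4.92 in control mice, on no array above background, and of 16.3, 19.1 and 29.9 in UVB mice, on every array above it. Ucp1 thus exceeded its control level at least 2.29-fold in the main processing. Its fitted log2 fold change was 3.11 (limma adjusted p = 0.00542), which rests on control values below background. With normexp it was 0.80, a smaller rise than that bound. With the replicate block Ucp1 kept its call. Dio2 (limma adjusted p = 0.0545), Cox8b (0.0566), Tmem26, Cidea and Tbx1 lost theirs.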
